A study of Homo sapiens with 12 samples.

Results

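RIPK1 is a protein kinase that sits below the TNF receptor, and Nec-1s is a small molecule that inhibits its kinase activity. The genes described here are those whose transcripts differed, in either direction, between HT-29 cells in which necroptosis was set off and the same treatment with RIPK1 kinase inhibited. HT-29 cells are a long-established line from a human adenocarcinoma of the colon. Treatment lasted 8 h and consisted of DMSO as the vehicle, TNFα at 10 ng/ml, TSZ, or TSZ and Nec-1s at 10 μM. TSZ is TNFα at the same dose together with SM-164 at 50 nM, a Smac mimetic that antagonizes IAP proteins, and zVAD at 20 μM, a caspase inhibitor. Both groups of the comparison therefore carried TNFα, SM-164 and zVAD, and differed by Nec-1s. Members were all genes with a mean of at least 10 normalized reads over TSZ and TSZ+Nec-1s, which were 11738 of the 26485 genes listed. Of these members, 11728 had reads per library in all 4 groups and were tested, and 10 could not be solved into libraries. There were 3 libraries per group, from 1 cell line, and whether each was a culture of its own is not given in the sources used here. The p-values therefore rest on library-to-library spread alone, which may be technical.

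When TNF binds its receptor, RIPK1 is ubiquitinated in a membrane complex that activates NF-κB and MAP kinases. Where IAP proteins and caspases are blocked, RIPK1 kinase activity joins RIPK1 to RIPK3, RIPK3 phosphorylates MLKL, and MLKL permeabilizes the plasma membrane, the death called necroptosis. Dying cells of this kind release their contents and also secrete cytokines. In bulk RNA, fewer cells of a type and less RNA per cell cannot be told apart, and all values below are relative to the other genes of the same library.

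The promoter bases of a few genes are shown first, because genes with the same short motifs moved in opposite directions. They are the 250 bases before the gene's start in RefSeq (build GRCh38.p14), written 5′ to 3′ on the gene's strand, and the genes were chosen after their values were seen. Capitals mark an AP-1 motif (TGANTCA), a CRE motif (TGACGTCA), a κB motif (GGANTTTCC) or an ETS motif (CCGGAAGT), read on both strands, and no match shown overlaps another. CXCL8 (chr4:73740319-73740568, plus strand) and CXCL10 (chr4:76023498-76023747, minus strand) encode chemokines of neutrophils and of T cells, SPRR1A (chr1:152983831-152984080, plus strand) a cornified envelope precursor, DUSP1 (chr5:172771196-172771445, minus strand) a MAP kinase phosphatase, PPP1R15A (chr19:48872171-48872420, plus strand) the GADD34 phosphatase subunit and LTV1 (chr6:143843088-143843337, plus strand) a factor of small ribosomal subunit assembly.
CXCL8: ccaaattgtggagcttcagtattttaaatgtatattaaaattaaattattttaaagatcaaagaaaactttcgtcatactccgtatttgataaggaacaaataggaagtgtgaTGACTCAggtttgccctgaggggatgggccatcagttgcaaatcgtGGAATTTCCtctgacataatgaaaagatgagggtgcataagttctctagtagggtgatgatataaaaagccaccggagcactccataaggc
CXCL10: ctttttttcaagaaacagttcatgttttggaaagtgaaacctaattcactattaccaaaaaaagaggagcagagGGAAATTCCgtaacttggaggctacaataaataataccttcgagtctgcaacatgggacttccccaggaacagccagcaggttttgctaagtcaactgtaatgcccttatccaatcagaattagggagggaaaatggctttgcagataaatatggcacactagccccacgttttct
SPRR1A: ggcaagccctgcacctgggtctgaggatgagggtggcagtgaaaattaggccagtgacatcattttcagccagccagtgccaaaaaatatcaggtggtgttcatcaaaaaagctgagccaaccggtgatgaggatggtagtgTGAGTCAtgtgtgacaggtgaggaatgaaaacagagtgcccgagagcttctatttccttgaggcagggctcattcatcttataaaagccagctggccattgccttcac
DUSP1: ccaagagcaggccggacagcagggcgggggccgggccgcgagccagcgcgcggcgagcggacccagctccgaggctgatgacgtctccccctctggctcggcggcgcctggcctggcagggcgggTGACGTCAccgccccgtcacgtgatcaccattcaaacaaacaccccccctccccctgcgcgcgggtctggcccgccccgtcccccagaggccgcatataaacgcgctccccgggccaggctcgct
PPP1R15A: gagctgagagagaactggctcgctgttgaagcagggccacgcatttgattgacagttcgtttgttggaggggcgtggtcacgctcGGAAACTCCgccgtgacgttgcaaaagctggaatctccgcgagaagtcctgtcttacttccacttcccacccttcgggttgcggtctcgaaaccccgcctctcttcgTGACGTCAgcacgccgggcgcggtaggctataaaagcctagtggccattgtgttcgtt
LTV1: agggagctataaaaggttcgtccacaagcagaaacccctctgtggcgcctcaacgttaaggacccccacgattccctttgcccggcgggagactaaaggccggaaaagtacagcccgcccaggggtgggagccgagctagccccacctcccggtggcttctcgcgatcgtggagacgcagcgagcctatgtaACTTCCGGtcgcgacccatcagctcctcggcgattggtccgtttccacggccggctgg
CXCL8, with an AP-1 and a κB match, was 8.07-fold higher with TSZ than after addition of Nec-1s, and CXCL10, with a κB match, was 9.20-fold lower. SPRR1A, DUSP1 and PPP1R15A were 49.8-fold, 39-fold and 18.3-fold higher, and LTV1, with an ETS match, was 1.92-fold lower. Among 27195 RefSeq promoters of 250 bases before to 50 bases after a start, 7.73% held the AP-1 letters, 1.98% the CRE letters, 1.65% the κB letters and 4.45% the ETS letters. A match is a description of these bases and not evidence of a bound factor.

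The estimated depth ranged from 8801457 to 12731837 reads per library over the 12 libraries, and from 9937848 to 12731837 in the 6 libraries compared. The letters a, b and c name the libraries of each group and pair nothing between groups. TSZ library a stood apart from TSZ libraries b and c by the GC content of its transcripts: across 11525 genes, which are not independent replicates, Spearman's rho between a library's deviation from its group and transcript GC was -0.75 in a, 0.56 in b and 0.59 in c, against -0.15, 0.24 and -0.09 in the TSZ+Nec-1s libraries. Libraries of the other groups in the fit spread as widely, with 0.54, -0.80 and 0.78 for DMSO and -0.61, 0.48 and 0.22 for TNFα. Colon epithelium markers such as EPCAM, KRT8 and KRT20 were read in all groups, whereas CDX1, CDX2, CDH17, GPA33 and TFF3 had group means below 10 throughout. Of 15 leukocyte markers, PTPRC, CD3E, CD3D, CD2, MS4A1, FCGR3A and HLA-DRA were at 0 in all groups, and LYZ, CD68, CD14, ITGAM and CD74 were read. Of 12 fibroblast and endothelial markers 4 were tested, COL1A1, COL1A2, PECAM1 and ENG, and their summed level ranged from 407 to 613 normalized reads with TSZ and from 254 to 286 with TSZ+Nec-1s, and was 478 to 492 with DMSO. COL1A1, a fibrillar collagen chain, held 301, 142 and 225 normalized reads in TSZ libraries a, b and c and 24.5, 40.8 and 27.2 with TSZ+Nec-1s, while CDH5 and KDR were at 0. Whether other cells contributed to the collagen reads, or to any gene group below, was not tested.

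Between TSZ and TSZ+Nec-1s the levels of many genes differed in both directions, with the larger differences among genes higher with TSZ. No group had Nec-1s without TSZ, so inhibition of RIPK1 kinase, other effects of Nec-1s and differences in cell death cannot be told apart. Of 11728 genes tested, 2729 (23.3%) had more normalized reads with TSZ and 2309 (19.7%) had fewer, at an adjusted p under 0.05 from limma fitted to all 12 libraries with Benjamini-Hochberg adjustment. In what follows, higher and lower mean the level with TSZ relative to TSZ+Nec-1s, and called means past that threshold. Counts of every gene list below are to be read beside these shares of all tested genes, 23.3% higher and 19.7% lower, and no list was tested as a set. At least 2-fold, 935 genes (7.97%) were higher and 604 (5.15%) lower. At least 4-fold, 293 were higher and 35 lower, and at least 8-fold, 121 were higher and 2 lower. The median fold of the called genes was nevertheless close in size, 1.67-fold for the higher and 1.65-fold for the lower genes. In 2713 of the higher and 2277 of the lower genes the 3 libraries of TSZ did not overlap those of TSZ+Nec-1s. A call with 3 libraries per group nearly requires such separation, so these counts are not separate support. Uncalled genes such as CCT5 were also apart, and the share over all tested genes is not given here.

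Higher and lower genes differed in how many reads they held. Among 2580 genes with a mean of at least 1000 normalized reads, 41.4% were higher and 10.8% lower, whereas among 2660 genes with a mean of 50 to 200, 14.96% were higher and 26.4% lower. The genes called higher held 52.4% ± 1.75 (SD, n = 3) of the reads of TSZ libraries and 37.1% ± 0.248 (SD, n = 3) of those of TSZ+Nec-1s, close to 35.7% with DMSO and 37.8% with TNFα. The genes called lower held 7.56% ± 0.169 (SD, n = 3) with TSZ and 14.1% ± 0.0686 (SD, n = 3) with TSZ+Nec-1s, against 15.02% with DMSO and 14.3% with TNFα. The genes were called on these same TSZ and TSZ+Nec-1s libraries, so the direction of both differences follows from the choice of genes.

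The number of genes in each direction depended on how the libraries were put on 1 scale. With the size factors of the deposited means, 54.2% of called genes were higher and the median log2 fold change of all tested genes was -0.01. With upper-quartile scaling 2071 were higher and 3153 lower, so 39.6% of calls were higher, and the median was -0.13. With total-read scaling 1532 were higher and 4637 lower, so 24.8% were higher, and the median was -0.31. All 2309 lower genes kept their call with either scaling, and 1532 and 2071 of the 2729 higher genes kept theirs. Both scalings moved log2 values down, so the lower calls could hardly be lost and were not tested by them. Changes below are on the main scale, and a gene or list with a log2 value between 0 and about that shift changes sign under total-read scaling.

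**Figure D1:**
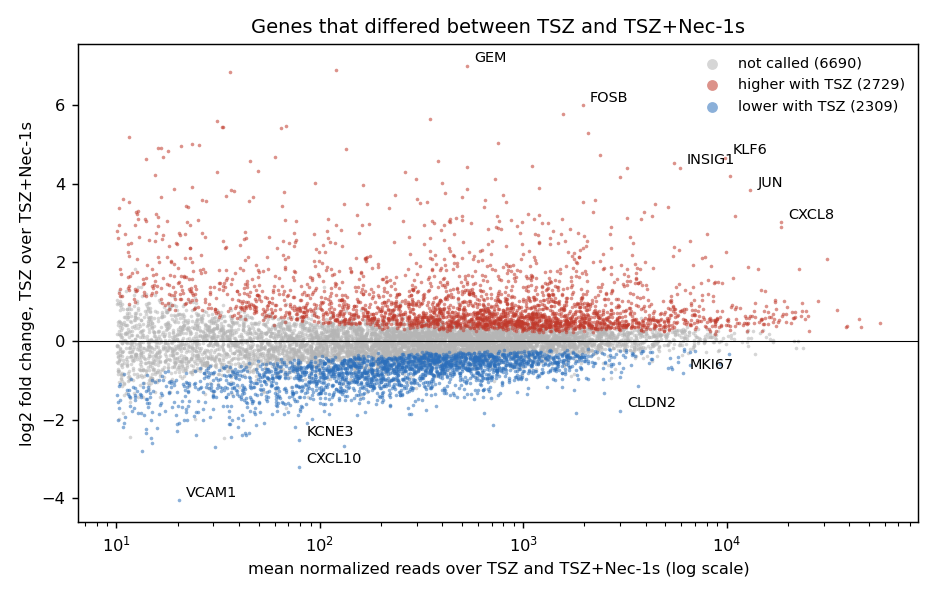
Each point is 1 of the 11728 tested genes, with its mean normalized reads over TSZ and TSZ+Nec-1s on a log axis and its log2 fold change of TSZ over TSZ+Nec-1s on the other. The 2729 genes called higher (red) reach a log2 value of 6.99 at GEM, and the 2309 called lower (blue) reach -4.05 at VCAM1.

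The 15 largest rises among called genes with a mean of at least 50 ran from a log2 value of 4.53 in GDF15 to 6.99 in GEM. GEM, an RGK-family GTPase, held 1163, 941 and 1058 normalized reads in TSZ libraries a, b and c, against 10.3, 10.4 and 4.02 with Nec-1s added. Its level was 1.60 ± 0.518 with TNFα and 1.36 ± 0.651 with DMSO (SD, n = 3), so the TSZ libraries stood apart from those of every other group. The log2 fold change of TSZ over TSZ+Nec-1s was 6.99 ± 0.31 (SE, limma adjusted p = 2.3e-09). FOSB (chr19:45467995-45475179), an AP-1 subunit, held 3106, 3819 and 4649.7 normalized reads with TSZ and 49.0, 57.3 and 77.5 with TSZ+Nec-1s. ATF3 (chr1:212565334-212620777), a stress-induced transcription factor, held 2775, 3187 and 3317 with TSZ and 70.4, 52.1 and 47.3 with TSZ+Nec-1s. In both genes every TSZ library was far above the highest TSZ+Nec-1s library, with log2 values of 5.99 ± 0.25 (adjusted p = 1.3e-09) and 5.76 ± 0.17 (adjusted p = 1.0e-10). KLF6 (chr10:3775996-3785281), a zinc finger transcription factor induced by injury, held 18272, 19726 and 18986 normalized reads with TSZ and 682, 761 and 823 with TSZ+Nec-1s, a log2 value of 4.66 ± 0.10 (adjusted p = 8.7e-12). Its TSZ+Nec-1s libraries lay somewhat above those of TNFα (544 ± 13.1) and DMSO (568 ± 80.0), a difference that was not tested.

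Since groups that did not overlap were a condition for the 15 largest rises, their separation is not a separate result. The other genes of the 15 follow. They were the RNA-binding protein gene RBPMS2 (238 ± 11.1 against 2.73 ± 2.54 normalized reads), the cornified envelope gene SPRR1A (683 ± 32.8 against 13.7 ± 5.51), the vesicle GTPase gene RAB3B (134 ± 25.6 against 2.59 ± 0.576) and the fibrillin gene FBN2 (126 ± 20.1 against 3.12 ± 2.53). DUSP1 held 4073 ± 400.3 against 104 ± 8.00, the kinase gene PIM1 1464 ± 179 against 44.5 ± 3.55, and IL36RN, an antagonist of the IL-36 receptor, 259 ± 6.57 against 9.66 ± 5.40. BHLHE40, a repressor of clock genes, held 4613 ± 657 against 174 ± 15.7, RNF223 116 ± 24.7 against 4.97 ± 4.61, the lipase inhibitor gene G0S2 735 ± 75.3 against 30.9 ± 5.07 and the stress cytokine gene GDF15 10574 ± 1533 against 457 ± 52.4. All these are mean ± SD of 3 TSZ and 3 TSZ+Nec-1s libraries. Their log2 values ranged from 4.53 in GDF15 to 6.89 in RBPMS2.

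Among called genes with a mean of at least 50, the largest fall was in CXCL10, a chemokine that interferon induces. It held 24.4, 7.90 and 16.7 normalized reads in the TSZ libraries and 132, 143 and 149.9 in the TSZ+Nec-1s libraries, with a log2 value of -3.20 ± 0.29 (adjusted p = 2.5e-06). CXCL10 was at 0 in all DMSO libraries and at 33.8 ± 6.01 with TNFα. KCNE3 (chr11:74454841-74467729), a potassium channel subunit of colon epithelium, held 31.1, 20.3 and 19.0 with TSZ and 129.7, 122 and 152 with TSZ+Nec-1s, and 366 ± 49.4 with DMSO. KCNE3 had a log2 value of -2.50 ± 0.25 (adjusted p = 6.4e-06). B4GAT1 (chr11:66345374-66347629), a glucuronyltransferase that glycosylates dystroglycan, held 23.3, 29.3 and 27.4 with TSZ and 119, 116 and 135 with TSZ+Nec-1s. PRMT6 (chr1:107056674-107067636), an arginine methyltransferase of histone H3, held 119, 129.8 and 114 with TSZ and 459, 436 and 429 with TSZ+Nec-1s. B4GAT1 and PRMT6 had log2 values of -2.19 ± 0.19 (adjusted p = 1.3e-06) and -1.86 ± 0.15 (adjusted p = 7.2e-07).

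Most of the other 15 largest falls had wider spreads between TSZ libraries, with library a the highest TSZ library in each gene named next. In 1 further gene of the 15, not reported here, library a was the lowest. The neuronal-type membrane protein gene SLITRK6 held 37.1 ± 17.3 against 226 ± 33.6 normalized reads (SD, n = 3), FAM111B 272 ± 111 against 1148 ± 64.8, and RPAP2, a phosphatase of RNA polymerase II, 39.3 ± 34.6 against 134 ± 3.31. The S phase genes CCNE2 and PRIM1, for cyclin E2 and DNA primase, held 37.8 ± 13.7 against 146 ± 13.6 and 66.0 ± 23.9 against 237 ± 17.7. FIGNL1, an ATPase of recombination repair, held 118 ± 18.7 against 429 ± 36.7, and C6orf203 25.7 ± 10.9 against 90.3 ± 11.03. CD83, a membrane protein of activated antigen-presenting cells, held 28.9 ± 8.18 against 104 ± 11.3, and 9.12 ± 1.77 with DMSO and 98.2 ± 7.77 with TNFα. SGOL2, a protector of centromere cohesion, held 96.5, 48.5 and 19.0 against 219.8, 135 and 147, and its call (adjusted p = 0.049) was lost without TSZ library b or c or any TSZ+Nec-1s library. Reads of the long noncoding RNA HOTTIP (33.9 ± 10.1 against 123 ± 7.89) were counted without strand beside the HOXA cluster.

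**Figure D2:**
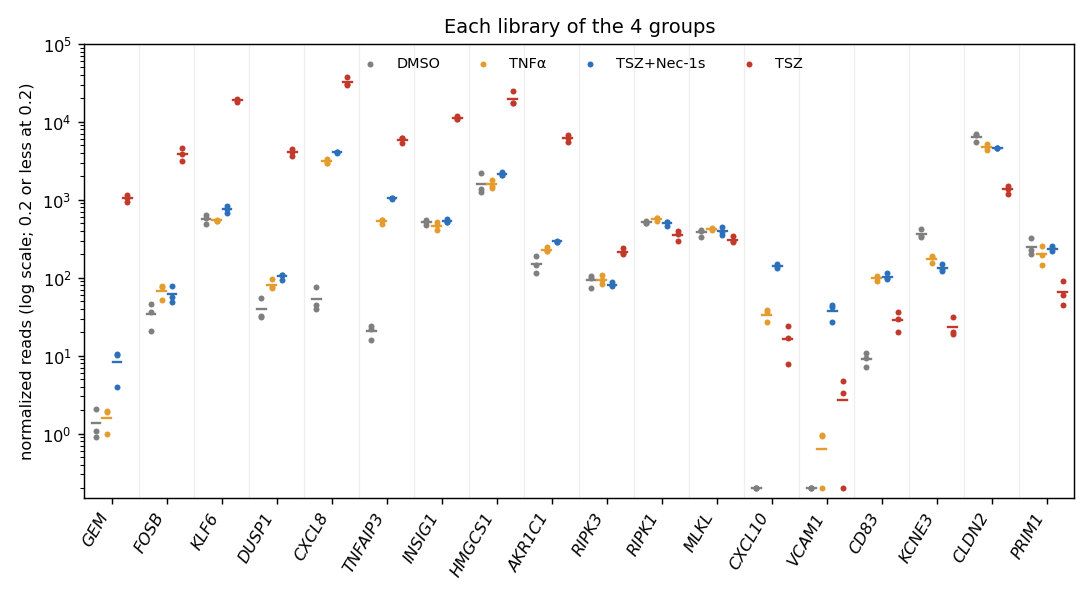
Normalized reads of 18 genes in each of the 12 libraries, on a log axis, with points for libraries and short bars for the mean of a group's 3 libraries, and values of 0.2 or less drawn at 0.2. GEM, FOSB and KLF6 are high in TSZ alone, and CXCL10 and VCAM1 are highest with TSZ+Nec-1s. RIPK1 and MLKL stay within a narrow range of this axis in the 4 groups, although both were called lower with TSZ than with TSZ+Nec-1s.

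Secreted ligands included large changes in both directions, with CXCL8 and TNF higher and CXCL10 lower with TSZ. CXCL8, which recruits neutrophils, held 37941, 30762 and 29975 normalized reads with TSZ and 4074, 4018 and 4070.3 with TSZ+Nec-1s. Every TSZ library was above every TSZ+Nec-1s library, and the log2 value was 3.01 ± 0.12 (adjusted p = 7.1e-10). Each TSZ+Nec-1s library was also above the TNFα libraries (3369, 2995 and 2958), by far less, a difference that was not tested. Of 11 chemokines tested, 6 were higher, CXCL10 and CXCL11 were lower, and CXCL6, CXCL16 and CCL28 were not called (median log2 0.89, against -0.01 for all tested genes). CXCL1 held 1772 ± 92.5 against 957 ± 50.2, CXCL2 796 ± 53.4 against 121 ± 11.6 and CCL20, a chemokine of CCR6, 1046 ± 115 against 209.9 ± 22.9 (SD, n = 3). CXCL1 thus changed 1.85-fold and CXCL2 6.54-fold. CXCL11, which like CXCL10 binds CXCR3, held 16.6, 12.4 and 3.57 normalized reads with TSZ and 38.0, 26.9 and 29.2 with TSZ+Nec-1s (log2 -1.68 ± 0.43, adjusted p = 0.0072).

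Of 17 other cytokine genes of immune cells, 12 were higher and 1 was lower, with a median log2 value of 1.83. TNF itself held 430.4, 479.7 and 508 normalized reads with TSZ and 67.2, 75.5 and 83.5 with TSZ+Nec-1s, 6.28-fold apart (adjusted p = 1.5e-07). CSF1 and CSF2, the growth factors of macrophages and of granulocytes and macrophages, held 1357 ± 179 against 164 ± 18.4 and 436 ± 74.3 against 32.8 ± 8.56 (SD, n = 3). Their groups did not overlap, with log2 values of 3.04 ± 0.13 and 3.71 ± 0.28. IL11, a cytokine of the IL-6 family, held 25.5, 38.4 and 34.5 normalized reads with TSZ and 1.58, 0 and 2.01 with TSZ+Nec-1s, so its fold of 25.4 rests on few reads in the second group. TNFSF10, which encodes the death ligand TRAIL, went the other way, with 131, 104 and 60.7 against 216, 193 and 176 (log2 -1.04 ± 0.21, adjusted p = 0.0018). LTB, TNFSF13, IL15 and IL18 were not called. Of 5 EGF receptor ligands, HBEGF (1363 ± 63.3 against 189 ± 19.3), AREG (5851 ± 804 against 1634 ± 18.5) and EREG were higher, and EGF and TGFA were not called.

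Of 24 receptors of the TNF and interleukin families, 10 (41.7%) were higher and 3 (12.5%) lower, against 23.3% and 19.7% of all tested genes. The median log2 value was 0.41. IL6R, the IL-6 receptor chain, held 507, 579 and 594 normalized reads with TSZ and 28.5, 33.9 and 34.2 with TSZ+Nec-1s, the largest change of the list (17.3-fold, adjusted p = 1.7e-09). TNFRSF10B, a TRAIL receptor, held 3227 ± 271 against 1444 ± 67.5 (SD, n = 3). TNFRSF21 (5202 ± 376 against 7981 ± 244) and IL20RA (log2 -0.89 ± 0.19, adjusted p = 0.0022) were lower, and the TNF receptor gene TNFRSF1A had a log2 value of 0.26 and was not called. Under total-read scaling 7 of the list were higher and 5 lower.

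RIPK1 held 296, 361 and 396 normalized reads in the TSZ libraries and 458, 521 and 516 in the TSZ+Nec-1s libraries, RIPK3 202, 205 and 238 against 80.7, 87.7 and 77.5, and MLKL 285, 293 and 340.4 against 352, 452 and 389. So RIPK3 alone of these was higher with TSZ, 2.61-fold (log2 1.38 ± 0.16, adjusted p = 1.6e-05), while RIPK1 was 1.43-fold lower (adjusted p = 0.0040) and MLKL 1.29-fold lower (adjusted p = 0.032). The MLKL call was lost without TSZ library a or b or TSZ+Nec-1s library b or c, when its log2 value was between -0.27 and -0.38. Of 24 genes of the death receptor complex and necroptosis tested, 5 (20.8%) were higher and 8 (33.3%) lower, against 23.3% and 19.7% of all tested genes. The median log2 value was 0.03, and under total-read scaling 4 were higher and 10 lower with a median of -0.27. CFLAR, the caspase-8 regulator cFLIP, held 1968 ± 62.8 against 1023 ± 38.7 and was higher, as were XIAP, CYLD and RBCK1. FADD (531 ± 56.4 against 822 ± 44.2), CASP8 (328 ± 21.99 against 482 ± 34.1) and the TAK1 complex genes TAB1 (129.9 ± 22.2 against 283 ± 26.7) and MAP3K7 were lower. BIRC2 and BIRC3, the cIAP genes, were not called, and in each TSZ library a stood above b and c (BIRC3 at 4436, 2423 and 2527).

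NF-κB genes were mostly higher with TSZ, 13 of 20 tested, with 2 lower and a median log2 value of 0.61. TNFAIP3, which encodes the ubiquitin editor A20, held 5368, 6232 and 6135 normalized reads with TSZ and 1053, 1036 and 1056 with TSZ+Nec-1s. The groups were 5.63-fold apart (log2 2.49 ± 0.09, adjusted p = 4.9e-10), and TNFα gave 536 ± 34.1. NFKBIA, the inhibitor IκBα, held 5513 ± 561 against 1648 ± 124, the p65 subunit gene RELA 4541 ± 632 against 1723 ± 37.3 and the subunit gene REL 554 ± 66.3 against 157 ± 23.3 (SD, n = 3). The kinase NIK gene MAP3K14 (296 ± 25.5 against 481 ± 18.3) and its adaptor TRAF3 (831 ± 57.5 against 1158 ± 27.2) were lower. The IKK subunit genes IKBKB, IKBKG and CHUK were not called, with log2 values from -0.19 to 0.06. MAPK14, the p38α kinase, held 560.2, 570.0 and 499 against 691, 685 and 731 (log2 -0.37 ± 0.11, adjusted p = 0.015), a call lost without TSZ library c (log2 -0.31) or TSZ+Nec-1s library c (log2 -0.34).

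AP-1 and other immediate early genes formed the list with the highest median log2 value, 2.32, and 29 of 31 tested were higher. JUN held 19670.1, 26738 and 27066 normalized reads with TSZ and 1684, 1679.9 and 1758 with TSZ+Nec-1s, and FOS 1843, 2061 and 2139 against 255, 234 and 212. Both AP-1 subunit genes were clear of overlap, with log2 values of 3.83 ± 0.14 and 3.10 ± 0.15. In TSZ+Nec-1s their levels were near those with TNFα (1639.6 ± 193 for JUN and 265 ± 36.0 for FOS). EGR1 changed less, from 483 ± 23.7 with TSZ+Nec-1s to 902 ± 94.9 with TSZ, and MYC least of those called (5789 ± 658 against 4689 ± 91.5, 1.23-fold), while EGR4 and IER5L were not called. Under total-read scaling 27 of the list were higher and 1 lower.

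Feedback inhibitors of MAP kinases were also higher, 12 of 17 tested, with a median log2 value of 1.31. DUSP1 held 3655, 4109 and 4453 normalized reads with TSZ and 108, 94.6 and 109 with TSZ+Nec-1s, and DUSP5, a nuclear phosphatase of ERK, 5358, 5707 and 5962 against 319, 303 and 330.0. The 2 genes were 39-fold and 17.9-fold apart without overlap. SPRY1, a Sprouty inhibitor of receptor tyrosine kinases, was lower (124 ± 12.2 against 188 ± 5.62). Of 22 mRNA decay factors, 8 (36.4%) were higher and 3 (13.6%) lower, against 23.3% and 19.7% of all tested genes. ZFP36, which binds AU-rich elements of cytokine mRNAs, held 9428 ± 1332 against 885 ± 21.7, and BTG1, a deadenylation cofactor, 2454 ± 229.8 against 356 ± 31.1. The deadenylase subunit gene CNOT6 and ELAVL1, the HuR protein that binds the same elements, were lower (log2 -0.60 and -0.57), and the CNOT6 call was lost without TSZ library b or c or any TSZ+Nec-1s library.

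Genes of sterol synthesis rose together, 18 of 21 enzymes tested, with a median log2 value of 1.17 and 16 higher under total-read scaling. HMGCS1, which makes HMG-CoA, held 24836, 17289 and 17679 normalized reads with TSZ and 2111, 2115 and 2273 with TSZ+Nec-1s. The TSZ libraries lay far above all others. The TSZ+Nec-1s libraries were within the range of DMSO or near it (1615 ± 523) and above each TNFα library (1578 ± 202), which was not tested. SQLE, squalene epoxidase, held 22147 ± 1119 against 6280.2 ± 347 and MSMO1 2528 ± 672 against 439 ± 42.3 (SD, n = 3). PMVK, TM7SF2 and LBR were not called, and LBR had a log2 value of 0.06.

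INSIG1, an SREBP target whose product holds the SREBP complex in the endoplasmic reticulum, held 11744, 10987 and 10969 normalized reads with TSZ and 562, 512 and 516 with TSZ+Nec-1s, 21.2-fold apart (adjusted p = 8.7e-12). The sterol transporter gene NPC1L1 was higher too, at 29.3 ± 2.91 against 4.56 ± 2.16 (SD, n = 3). The efflux transporter genes ABCA1 (6.66, 1.13 and 8.33 against 18.2, 12.2 and 15.1) and ABCG1 (15.5, 15.8 and 17.9 against 41.9, 49.5 and 39.2) were lower. Both efflux pairs of groups were apart, at low levels, and the ABCA1 call (adjusted p = 0.018) was lost without TSZ library b or TSZ+Nec-1s library a. Of 19 genes of the list, 10 were higher and 4 lower. Of 14 fatty acid synthesis enzymes, 8 were higher, 4 of them under total-read scaling with 2 lower. They included ACSS2, which makes acetyl-CoA from acetate (784 ± 98.5 against 91.2 ± 8.72), the phosphatidate phosphatase gene LPIN1 (862 ± 62.5 against 150.1 ± 12.01) and FASN (21142 ± 3068 against 8495 ± 199).

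The ATF4-CHOP stress response was higher in 15 of 17 tested genes, with a median log2 value of 1.95. PPP1R15A, the GADD34 subunit that dephosphorylates eIF2α, held 17031, 20095 and 22081 normalized reads with TSZ and 1093, 1053 and 1065 with TSZ+Nec-1s. That gap was 18.3-fold (adjusted p = 4.2e-11), with 1037 ± 45.5 reads with TNFα. ATF4 held 12793 ± 779 against 4572 ± 166, DDIT3, the CHOP gene, 697 ± 51.8 against 118 ± 11.2, TRIB3 2925 ± 394 against 736 ± 39.3 and CHAC1, which degrades glutathione, 272 ± 33.8 against 40.6 ± 6.01 (SD, n = 3). ASNS, asparagine synthetase, held 995 ± 62.8 against 642 ± 21.9. Of 17 amino acid transporters and serine synthesis genes, 4 were higher and 2 lower. Of 20 cytosolic aminoacyl-tRNA synthetases, 4 were higher and 5 lower. The shares higher in these lists, 23.5% and 20.0%, were near the 23.3% of all tested genes.

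The endoplasmic reticulum chaperones did not share this rise. Of 23 genes of the unfolded protein response, 5 (21.7%) were higher and 1 (4.35%) lower, against 23.3% and 19.7% of all tested genes. The share higher was thus near that of all tested genes. The median log2 value was -0.03, and under total-read scaling 4 were higher and 12 lower. HSPA5, the chaperone BiP, held 13942, 12888 and 13703 normalized reads with TSZ and 12694, 12673 and 13136 with TSZ+Nec-1s. These groups overlapped, and the interval of the log2 value (95%, -0.09 to 0.23) lay within 1.2-fold. The higher genes were HERPUD1 (1344 ± 47.0 against 468 ± 16.4), ERN1, the sensor IRE1 (306 ± 70.3 against 101 ± 16.1), DNAJB9, EDEM1 and EIF2AK3. Of 18 cytosolic heat shock genes, 7 (38.9%) were higher and 2 (11.1%) lower. HSPA1A and HSPA1B, near-identical copies whose reads the counting could split, held 2136 ± 131 against 724 ± 18.6 and 2561 ± 219 against 888 ± 2.21 (SD, n = 3).

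Antioxidant targets of NRF2 were higher in 18 of 20 tested genes, with a median log2 value of 0.84, and in 16 under total-read scaling. AKR1C1, a ketosteroid reductase with close paralogs, held 5572, 6815 and 6197 normalized reads with TSZ and 299.7, 292 and 288 with TSZ+Nec-1s, 21.0-fold apart (adjusted p = 1.2e-10). HMOX1, heme oxygenase, held 1078, 1238 and 1192 against 115, 95.5 and 121. TXNRD1, thioredoxin reductase, held 35448 ± 1106 against 10046 ± 203, OSGIN1 1639 ± 219 against 351 ± 36.1 and NQO1 14816 ± 439 against 8354 ± 298 (SD, n = 3). No TSZ library of these genes fell to the TSZ+Nec-1s range. SLC7A11 and ME1 were not called, at log2 values of 0.33 and 0.31. Of 7 metallothionein and zinc transport genes, 3 (42.9%, against 23.3% of all tested genes) were higher, among them MT2A (919 ± 119.7 against 606 ± 13.8).

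Of 30 interferon-stimulated genes, 5 (16.7%) were higher and 12 lower, against 23.3% and 19.7% of all tested genes, with a median log2 value of -0.08. IFIT5, an RNA-binding antiviral protein, held 63.2, 40.6 and 44.03 normalized reads with TSZ and 134, 135 and 138 with TSZ+Nec-1s, and DDX58, the RNA sensor RIG-I, 156, 155 and 123 against 302, 296 and 279. In both the groups were apart, with log2 values of -1.47 ± 0.26 and -1.02 ± 0.16 (adjusted p = 6.8e-04 and 2.1e-04). OASL (651 ± 74.7 against 187 ± 4.22), IRF7 (2097 ± 233 against 611 ± 47.3) and IRF1 (2293 ± 258 against 1354 ± 65.7) were higher. IFIT1, IFIT2, MX1 and ISG15 were not called. Without TSZ library b, 7 members were lower, and without any other 1 of the 6 libraries 8 to 12 were.

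Class I antigen presentation genes were higher in 7 of 16 and lower in 3, with a median log2 value of 0.22 that was -0.08 under total-read scaling. HLA-E, which binds NK cell receptors, held 5025, 5844 and 6118 normalized reads with TSZ and 1439, 1479 and 1446 with TSZ+Nec-1s, 3.88-fold apart. The peptide-processing genes TAP1, PSMB8 and ERAP1 were lower, by log2 values from -0.31 to -0.62, and the PSMB8 call was lost without TSZ library b (log2 -0.52). SOCS3, an inhibitor of cytokine receptors, held 192, 220.1 and 225 against 29.3, 35.6 and 18.1, and SOCS1 51.0, 76.7 and 54.7 against 0, 1.74 and 2.01. Both were higher without overlap. CISH, another gene of this family, was lower (8.87, 7.90 and 7.14 against 28.5, 26.05 and 54.3, adjusted p = 0.0015).

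Adhesion and matrix genes included the largest fall of all genes called. VCAM1, a ligand of leukocyte integrins, held 3.33, 0 and 4.76 normalized reads with TSZ and 44.3, 26.9 and 42.3 with TSZ+Nec-1s, whereas it was at 0 in all DMSO libraries and at 0.632 ± 0.548 with TNFα. Reads were thus mainly in the group with Nec-1s, 16.6-fold above TSZ (log2 -4.05 ± 0.63, adjusted p = 2.3e-04). ICAM1, another integrin ligand, was higher with TSZ, at 6972, 8129 and 8758 against 3543, 3475 and 3378. Of 25 genes tested, 14 were higher and 2 lower. The urokinase gene PLAU (1367 ± 137 against 78.4 ± 2.66) was higher. Integrin genes such as ITGA2, ITGAV and ITGB1 were not called.

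Of 23 SRF targets and actin genes, 21 were higher (17 under total-read scaling), with RHOB, a GTPase of actin dynamics, at 7178, 8034 and 8113 against 830.3, 836 and 908. Of 15 YAP and TEAD targets, 6 were higher and 1 lower, with CTGF at 85.4, 58.7 and 63.1 against 11.9, 13.9 and 11.1 and YAP1 itself not called. Of 22 tight junction and polarity genes, 17 were higher and 1 lower. CLDN2, a pore-forming claudin, held 1198, 1388 and 1488 normalized reads with TSZ and 4559.6, 4640.4 and 4605 with TSZ+Nec-1s, and CLDN4, a sealing claudin, 8566, 10011 and 10974 against 3815, 3802 and 3743. These 2 claudins went in opposite directions, both without overlap (log2 -1.77 ± 0.11 and 1.37 ± 0.13). Of 7 cornified envelope genes, 5 were higher, among them SPRR3 (84.3, 86.9 and 90.4 against 8.70, 4.34 and 7.04).

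Differentiation genes of colonocytes and secretory cells were higher in 15 of 23, with a median log2 value of 0.65. ELF3, an epithelial ETS factor, held 3177 ± 440.0 against 634 ± 10.7, KRT20, a keratin of mature colonocytes, 8493 ± 258 against 3126 ± 63.6 and the mucin gene MUC2 249 ± 29.9 against 79.0 ± 11.7 (SD, n = 3). HNF4A and MUC1 were not called. Of 17 WNT targets and regulators, 6 (35.3%) were lower and 4 (23.5%) higher, against 19.7% and 23.3% of all tested genes. The share higher was thus near that of all tested genes, and the median log2 value was -0.18. AXIN2, a feedback gene of the pathway, held 342, 411 and 377 normalized reads with TSZ and 859, 860.4 and 946 with TSZ+Nec-1s. LGR5, a stem cell receptor, held 86.5, 39.5 and 85.7 against 123, 130.2 and 165, and MYB 79.9, 71.1 and 66.6 against 181, 183 and 193. All 3 were lower without overlap, and BAMBI, TCF7, TCF7L2 and CTNNB1 were higher. Of 28 TGF-β, BMP and Notch response genes, 13 (46.4%) were higher and 3 (10.7%) lower (9 and 8 under total-read scaling). SMAD1, at 60.6 ± 15.8 against 137 ± 9.86, was among the lower.

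CDKN1A, the CDK inhibitor p21, held 5955, 7596 and 7809 normalized reads with TSZ and 719.6, 695 and 761 with TSZ+Nec-1s, and BBC3, the BH3 protein PUMA, 1907, 2414 and 2398 against 164, 149 and 134. They were 9.76-fold and 14.9-fold apart without overlap. Of 25 p53 targets, 9 (36.0%, against 23.3% of all tested genes) were higher and 2, the repair genes XPC and POLH, were lower (XPC not without TSZ library b or c or any TSZ+Nec-1s library, at log2 values from -0.40 to -0.57), and MDM2, BAX and DDB2 were not called. Of 18 BCL2 family genes and IAPs, 9 were higher, including BMF (112 ± 15.2 against 18.8 ± 1.1) and the survival gene MCL1 (13038 ± 1879.7 against 4547 ± 146), and BID and BIRC5 were lower with calls that did not survive leaving out any 1 of the 6 libraries. BIRC3 and BCL2L1 were not called.

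Of 32 hypoxia and glycolysis genes, 21 were higher, and 12 under total-read scaling. The stress gene NDRG1 held 1836, 2314 and 2216 normalized reads with TSZ and 90.1, 101 and 99.6 with TSZ+Nec-1s, the glucose transporter gene SLC2A1 17119.7, 21409 and 21354 against 5275, 5466 and 5489.8. Both were apart, and the glycolytic enzymes changed less, with GAPDH at 66053 ± 5919.6 against 47916 ± 2059 (log2 0.46 ± 0.13, adjusted p = 0.012), a call lost under total-read scaling (log2 0.16), upper-quartile scaling (log2 0.34) and without TSZ library c (log2 0.40). Of 28 autophagy and lysosome genes, 19 were higher, with the cargo receptor gene SQSTM1 at 50415 ± 5847 against 11944 ± 111 and GABARAPL1 at 457 ± 12.7 against 55.001 ± 3.15 (SD, n = 3). Of 16 clock genes, 10 were higher and CLOCK was lower (a call that held among the 6 libraries only without TSZ library a), with the repressor gene NR1D1 at 1843, 2121 and 2500.4 against 210.3, 278 and 211. Of 23 ESCRT-III and membrane repair genes, 11 were higher and 1 lower, with CHMP1B, an ESCRT-III subunit, at 2126, 2097 and 2116 against 836, 838 and 786. CHMP4B held 7457 ± 231 against 4361 ± 8.12, and TSG101, PDCD6IP and VPS4A were not called.

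Genes of cell proliferation were lower with TSZ. Of 41 DNA replication genes, 31 were lower and CCNE1, for cyclin E1, was higher, with a median log2 value of -0.61. PRIM1 held 92.1, 45.1 and 60.7 normalized reads with TSZ and 218, 254 and 239 with TSZ+Nec-1s, and the helicase gene MCM2 2387, 2753 and 2859.8 against 4139.7, 4257 and 3880.1. Neither overlapped, with log2 values of -1.89 ± 0.29 and -0.62 ± 0.11. The CCNE1 call (log2 0.26, adjusted p = 0.049) was lost when any 1 of the 6 libraries was left out and under total-read scaling, where it was -0.05. TYMS and RRM1 were not called. Of 39 mitosis genes, 25 were lower, with a median log2 value of -0.64. MKI67, a marker of cycling cells, held 4104, 4714 and 4445 against 7698, 7769 and 7823, and the kinesin gene KIF20A 233, 230.2 and 318 against 669.8, 690.2 and 706. HMMR, a spindle protein, held 169, 77.9 and 54.7 against 285, 243 and 299.8, and its call was lost without TSZ library c (log2 -1.25). CDK1, AURKB and FOXM1 were not called. Summed over the DNA replication list, TSZ libraries held 40253 to 43033 normalized reads and TSZ+Nec-1s libraries 54099 to 55306, against 61842 to 67194 with DMSO. Without TSZ library a, 28 replication and 26 mitosis genes were lower, and with each library's GC trend removed, 34 and 28 were. Counts of these lists without another library are not given here. Over all tested genes, 84.4% of lower calls were kept without TSZ library a, and 74.3% to 76.2% without any other of the 6 libraries.

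Of 82 cytosolic ribosomal protein genes, 71 were higher and 3 lower, with a median log2 value of 0.55, and 32 were higher and 5 lower under total-read scaling. RPL28 held 13848 ± 1537 against 7368 ± 198 normalized reads (SD, n = 3), and many genes of this family share reads with pseudogenes. Of 77 mitochondrial ribosomal protein genes, 21 (27.3%) were lower and 3 (3.90%) higher, against 19.7% and 23.3% of all tested genes. Of 44 ribosome biogenesis genes, 21 (47.7%) were lower and 2 (4.55%) higher. The median log2 values of these lists were -0.18 and -0.33, and under total-read scaling 51 and 32 genes were lower. POLR1B, a subunit of RNA polymerase I, held 496, 481 and 515 with TSZ and 1094, 1079 and 1075 with TSZ+Nec-1s. LTV1 held 587, 324 and 336 against 829, 706 and 782, with library a of TSZ nearer to the TSZ+Nec-1s libraries, and its call (adjusted p = 0.013) was lost without TSZ library b (log2 -0.79) or c (log2 -0.82). NCL and NPM1 were not called.

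Of 31 proteasome subunits, 4 were higher, whereas 13 were lower under total-read scaling, so no direction holds for that list. Of 47 nuclear-encoded respiratory chain subunits, 18 were higher and NDUFC2 was lower (not without TSZ library b or c, at log2 -1.20 and -1.01), but under total-read scaling 7 were lower and the higher calls were lost. Of 342 zinc finger genes, 124 were lower and 32 higher, with a median log2 value of -0.45. ZNF165 was higher (278, 273 and 263 against 68.0, 63.4 and 59.4), and ZNF680 had the largest fall of the family (27.7, 7.90 and 1.2 against 48.2, 55.6 and 43.3), a call (adjusted p = 0.028) lost without TSZ library b or c or TSZ+Nec-1s library a or b. Zinc finger genes share sequence, so their reads may be split. Of 34 nucleosome-modifying and Polycomb genes, 9 (26.5%) were higher and 7 (20.6%) lower, near the 23.3% and 19.7% of all tested genes, with the demethylase gene KDM6B at 2919 ± 513 against 714 ± 41.7 and the Polycomb gene EED at 256 ± 37.1 against 462 ± 39.6. Of 6 histone genes tested, 4 were higher, and these polyadenylated forms included HIST1H1C (170.4 ± 3.07 against 47.1 ± 8.78).

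**Figure D3:**
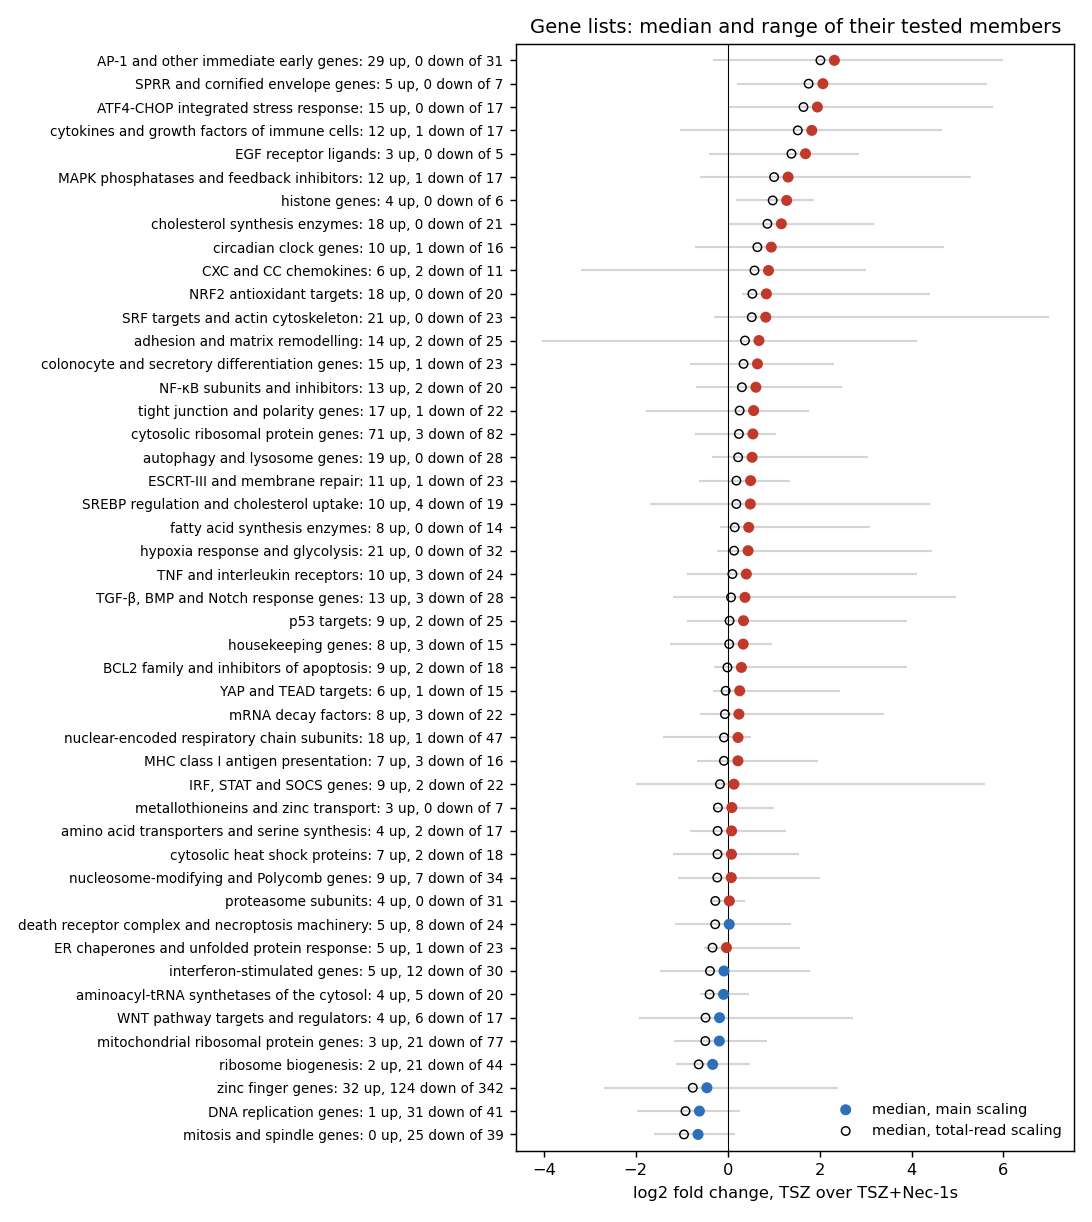
Gene lists ordered by the median log2 fold change of TSZ over TSZ+Nec-1s of their tested members (filled points, red where more members were called higher, blue where more were called lower), with the median under total-read scaling (open points) and the range of the members (grey lines). The AP-1 list has the highest median, 2.32, the mitosis list the lowest, -0.64, and the open points lie to the left by about 0.3.

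Most genes that TNFα alone raised were higher again with TSZ when Nec-1s was left out, although TNFα was present in both. TNFα against DMSO shares no library with TSZ against TSZ+Nec-1s. In it 369 of the 11728 genes (3.15%) were called higher and 123 (1.05%) lower in the same fit. Among the 2729 genes higher with TSZ, 219 (8.02%) were higher with TNFα, and among the 935 at least 2-fold higher, 121 (12.9%) were. Among the 2309 lower genes, 45 (1.95%) were higher and 40 (1.73%) lower with TNFα. Of the genes higher with TNFα, 59.3% were higher and 12.2% lower with TSZ. The latter included CXCL10, CXCL11, CD83, TRAF3, TNFRSF21 and TNFAIP2, an NF-κB target, which held 6086, 8375 and 7957 normalized reads with TSZ, 11175, 11353 and 10768 with TSZ+Nec-1s and 3942 ± 187 with TNFα. These genes had more reads with TSZ+Nec-1s than with TSZ in every library. ST3GAL1, a sialyltransferase raised by TNFα (16124 ± 1073 against 8509 ± 527 with DMSO), held 16901 ± 1909.9 with TSZ and 17039 ± 554 with TSZ+Nec-1s and was not called (95% interval of the log2 value, -0.22 to 0.18).

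For 6690 genes no difference was called, which is not the same as no change. Of the uncalled genes, 3066 had a 95% interval of the fold within 1.5-fold in either direction, and in 170 it lay within 1.2-fold. The 5 of these with the most reads were TUBA1B, HSPA5, ST3GAL1, CCT5 and PDIA3. TUBA1B, an α-tubulin gene, held 19841, 22362 and 22028 normalized reads with TSZ and 21962, 22089 and 20669 with TSZ+Nec-1s. CCT5, a subunit of the TRiC chaperonin, held 10039, 9585 and 9978 against 9499, 9403 and 9012, apart by 1.06-fold and not called, and under total-read scaling it was called lower (log2 -0.22).

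The 10 called genes with the most reads in each direction changed by 1.2-fold to 2.01-fold if higher, apart from SQSTM1 at 4.20-fold, and by 1.15-fold to 1.76-fold if lower. RPL4 (53156 ± 3820.0 against 36254 ± 894 normalized reads), the chaperone gene HSP90AB1 (44438 ± 1226 against 34090.3 ± 66.2), TPT1 (44244 ± 4752 against 25696 ± 309.9) and PLEC (37678 ± 6800.0 against 18524 ± 148) were among the higher. SLC1A5, a glutamine transporter (9135 ± 1315 against 11454 ± 299), and TNFAIP2 were among the lower. The HSP90AB1 call was lost under total-read scaling (log2 0.08), and that of SLC1A5 without any 1 of the 6 libraries but TSZ library b (log2 -0.21 to -0.38). The 10 members without reads per library have no test. Their deposited means, as the authors' means without SD, were all higher with TSZ, by 1.36-fold in KRT8 to 3.06-fold in FTH1, an iron storage subunit, with ACTB, ACTG1, EEF1A1, EEF2, FTL, HMGA1, HSPA8 and KRT18 between.

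Transcript features also differed between the called genes. The canonical transcripts of the higher genes had a median GC content of 52.5% and those of the lower genes 46.3%, against 48.5% for all tested genes with a match. The share called higher went from 9.77% below 40% GC to 33.1% at 60% and over, and the median log2 value from -0.24 to 0.23. The same property marks TSZ library a, and with each library's GC trend removed the medians of these GC classes lay between -0.01 and 0.03, while 3600 genes were called higher and 3252 lower. Of the 2729 and 2309 calls, 2680 and 2209 were kept, and no call changed direction. Strongly raised genes were also short: genes at least 8-fold higher spanned a median of 13098 bases with 5 exons, against 31219 bases and 9 exons over the tested genes. Their 3′ UTRs held 2.56 AUUUA pentamers per kb against 2.27. That excess was not seen in all higher genes, which held 2.06, or in those at least 2-fold higher, which held 2.27. The lower genes held 2.05.

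**Figure D4:**
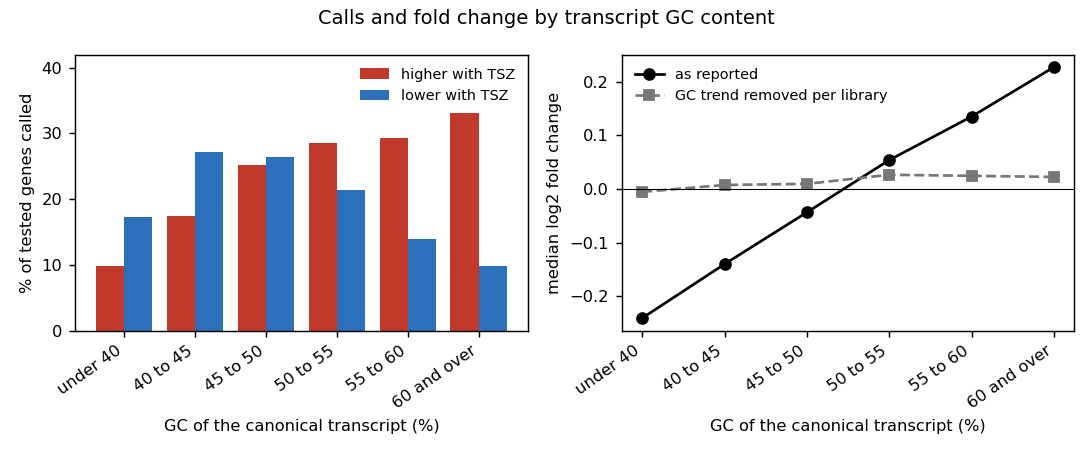
Left, the share of tested genes called higher (red) or lower (blue) with TSZ, by GC content of the canonical transcript, from 9.77% and 17.2% below 40% GC to 33.1% and 9.81% at 60% and over. Right, the median log2 fold change of the same classes as reported (solid line) and with each library's GC trend removed (dashed line, between -0.01 and 0.03).

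Promoter letters differed between the directions as well, as a description without a test. Of tested genes with a RefSeq promoter outside chromosome 8, the AP-1 letters were in 7.30% of the higher, 3.27% of the lower and 4.67% of all, and in 16 of 95 (16.8%) of those at least 8-fold higher, SPRR1A among them. The ETS letters were in 5.85% of the higher, 12.4% of the lower and 9.58% of all. The κB letters were in 2.01%, 1.66% and 1.61%. They were in 24 of 691 (3.47%) of the genes at least 2-fold higher and in 1.89% of those at least 2-fold lower. Of those at least 8-fold higher, 3 of 95 (3.16%) held them. Median promoter GC was 66.7% for the higher, 64.0% for the lower and 65.3% for all, which these shares do not take into account.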

How the data were processed

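RNA-seq libraries of HT-29 cells were made in 3 replicates for each of 4 groups. The authors aligned reads to hg38 with STAR, counted them per gene with HTSeq without strand, and scaled the counts with DESeq. The 6 deposited tables hold, per gene, the means of 2 groups as a signal, which is the scaled count averaged over 3 libraries, beside the authors' fold changes and p-values of their comparisons, which were not used. Whole reads per library were recovered by solving each mean as the sum of 3 whole numbers, each times the worth of 1 read in its library. For DMSO, 15846 of 15850 genes were solved, for TNFα 15659 of 15664, for TSZ 15794 of 15798 and for TSZ+Nec-1s 15732 of 15733. Recovered libraries carry no replicate number. Normalized reads are recovered reads divided by the size factor of the library.

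Genes whose mean reached 10 were fitted with limma 3.58.1 in R 4.3.3, on log2 values with an offset of 0.5 reads and precision weights, over 12 libraries in 4 groups. Benjamini-Hochberg adjustment was applied to all p-values, with a threshold of 0.05, and errors of log2 values are SE. All other steps used matplotlib 3.10.9, scipy 1.17.1, pandas 2.3.3 and numpy 2.4.6 under Python 3.11.15. The fit was tested on simulated data. Depth was the estimated total of reads per library, and covers counting error only. Near-identical, overlapping and antisense genes are uncertain, since reads were counted without strand and may be split.

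The 15 genes with the largest change in each direction were named among called genes with non-overlapping groups and a mean of 50 or more, then up to 2 members of each list in each direction, list members by role that did not pass, the 10 called genes in each direction with the most reads, the genes the study names, and 5 genes with an interval within 1.2-fold. Other list members, such as JUN, FOS, MYC and ICAM1, were named for their role after their values were seen. The members and lists were chosen with earlier results of these data known. Alternatives were other scalings, filters, offsets and weights, the 6 libraries alone, the removal of GC trends and leaving out each library. Each was fitted to all genes that passed its filter, and list counts are given for some of them. Outcomes of single genes are given for the 205 genes chosen by the rule and not for other list members. Some list members are not reported here.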

Additional observations from a re-analysis of the deposited data

How the results depend on the processing

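No call of the comparison changed direction under any alternative. Total-read scaling gave 1532 higher and 4637 lower genes, of which 614 and 1410 changed at least 2-fold, and 216 genes lower with TNFα than with DMSO. A mean of at least 50, which leaves out the 1837 tested genes with a mean of 10 to 50, left 400 genes at least 2-fold lower. With GC trends removed, 974 genes were higher and 604 lower with TNFα. These counts moved by over 1.5 times. Total-read scaling moved the log2 values of the main comparison down, and why the TNFα counts moved was not tested. Leaving out 1 of the 6 libraries gave 2201 to 2917 higher and 1749 to 2283 lower genes, and 880 to 1005 and 497 to 757 at least 2-fold. Of 205 named genes, 184 kept their side of the threshold under total-read scaling, 195 under upper-quartile scaling, and 171 to 192 without 1 library. No paired analysis was possible because the recovered libraries carry no replicate number. The median SE on the log2 scale was 0.345 at a mean of 10 to 50 normalized reads, 0.145 at 200 to 1000 and 0.121 at 1000 and over.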
